A study of Homo sapiens with 4 samples.

Results

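The 8 genes described here encode 4 co-chaperones of the BAG family (BAG1, BAG3, BAG4 and BAG5), the cytosolic chaperone HSP90AB1, the collagen chaperone SERPINH1, the mitochondrial co-chaperonin HSPE1 and the heat shock factor HSF4. They were chosen by symbol, and each is read by 1 oligonucleotide, so that they make up 8 of 1892 genes named on the array and 8 of its 3048 oligonucleotides, 1989 of which carry a symbol. SK-MEL28, an established human melanoma line, was exposed to ECT pulses (8 pulses, 1300 V/cm, 100 μs each) or to EGT pulses (8 pulses, 600 V/cm, 5000 μs each), in both cases at 1 Hz, and RNA was taken 16 h later. ECT stands for electrochemotherapy and EGT for electrogene therapy, and the comparison asks which transcripts differ between exposed and untreated cells. Each pulse type has 2 arrays, and on all 4 arrays the untreated RNA carried Cy3 and the exposed RNA Cy5, with no dye swap, so a dye effect of an oligonucleotide and a response to the pulses cannot be told apart. The treatment text names a single unpulsed aliquot of the cell suspension as the control, so the ECT and EGT values may share it. Whether its RNA was on all 4 arrays is not stated, and the fits did not model a shared control. The word cisplatin, a drug that the treatment text does not mention, also stands in the Cy5 source label of every array except ECT array 1. If the labels are right, the 2 ECT arrays differ in drug. On the arrays so labelled, a response to the pulses and one to the drug could then not be told apart. Whether the arrays of a pulse type hold RNA of separate cultures is not stated, so SDs and p-values below measure the spread between arrays, which may be technical. A lower level of a transcript in each cell and a loss of cells rich in it cannot be told apart in such bulk RNA.

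HSP70 chaperones bind unfolded proteins in a cycle driven by ATP. BAG proteins share a domain that binds HSP70 and speeds the release of nucleotide and client, and their other parts link HSP70 to cell survival signals, autophagy or the proteasome. HSP90AB1, the constitutively expressed cytosolic HSP90, takes over kinases and receptors from HSP70, HSPE1 caps the HSP60 chamber in mitochondria, and SERPINH1, also called HSP47, keeps procollagen folded in the endoplasmic reticulum. Heat shock factors bind inverted repeats of a short unit, the heat shock element, and HSF4, which is best known from the lens, binds the same element.

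The heat shock element was looked for in promoters because it is the sequence through which heat shock factors act on chaperone genes. RefSeq promoter windows (GRCh38.p14) of 300 bases, 250 before and 50 after a start site, were found for 7 of the 8 genes, 12 windows in all, with some genes having several start sites. The element of 3 units, searched as TTCNNGAANNTTC and its reverse complement GAANNTTCNNGAA, was in 172 of 35116 windows of all genes (0.49%), and in windows of 2 of the 7 genes, HSP90AB1 and SERPINH1. Counted by window, as the 0.49% is, that was 2 of the 12 windows, since other windows of HSP90AB1 and SERPINH1 had no match. The windows of BAG1, BAG3, BAG5, HSPE1 and HSF4 do not hold these letters. The element of 2 units, GAANNTTC or TTCNNGAA, which is part of the longer one, was in 13.5% of all windows and in those of the same 2 genes. By window that was again 2 of the 12. The SERPINH1 match of 3 units begins 76 bases before its start site. HSP90AB1 has 2 matches, 165 and 112 bases before the most downstream of its 3 start sites in the table, and 2 other start sites lie further upstream. Both genes are on the plus strand, and the matches are in capitals:
HSP90AB1 (chr6:44247770-44247798): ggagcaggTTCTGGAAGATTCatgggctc
HSP90AB1 (chr6:44247823-44247851): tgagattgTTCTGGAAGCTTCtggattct
SERPINH1 (chr11:75562132-75562234): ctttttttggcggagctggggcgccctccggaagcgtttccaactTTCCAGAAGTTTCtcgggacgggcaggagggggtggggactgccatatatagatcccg

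Each array held 12788 spots. Median signal was 2.21 to 5.38 times the local background in Cy3 and 1.64 to 2.20 times in Cy5, and 37.3% to 47.7% of spots were kept. A spot was kept when both channels reached 2 times the local background, and an oligonucleotide counted as measured where 2 or more of its spots were kept. On all 4 arrays 1163 oligonucleotides were measured, 6 of them from the 8 genes. All 8 melanocyte marker oligonucleotides on the array were measured on all 4 arrays, with Cy3 signals from 13.8 (EDNRB) to 347.9 times background (CD63). So were 3 of 4 T and B cell markers, among them CD28 at 101.4 times background, and all 5 epithelial ones, so a signal over background does not by itself show that a gene is expressed in these cells. Of 48 spots of negative control oligonucleotides, 7 to 9 per array passed 2 times background in both channels. The 70-mer sequences were not used here, and binding of related transcripts (the pseudogenes of HSP90AB1 and HSPE1, for example) was not checked.

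In brief, 4 of the 6 measured genes, HSP90AB1, SERPINH1, BAG1 and BAG5, had log2 ratios (exposed/untreated) above 0 on both arrays of each pulse type, and BAG4 and HSF4 had ratios below 0 on both. The means ran from -0.56 (HSF4 after ECT pulses) to 0.51 (HSP90AB1 after ECT pulses). No gene of the 6 passed limma's test after adjustment over all oligonucleotides, and none of them differed by 1.5-fold on both arrays of a pulse type. BAG3 and HSPE1 were measured on ECT array 1 and EGT array 2 alone, so neither check could be made for them. HSPE1 was lower by at least 1.5-fold on each of these arrays.

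**Figure D1:**
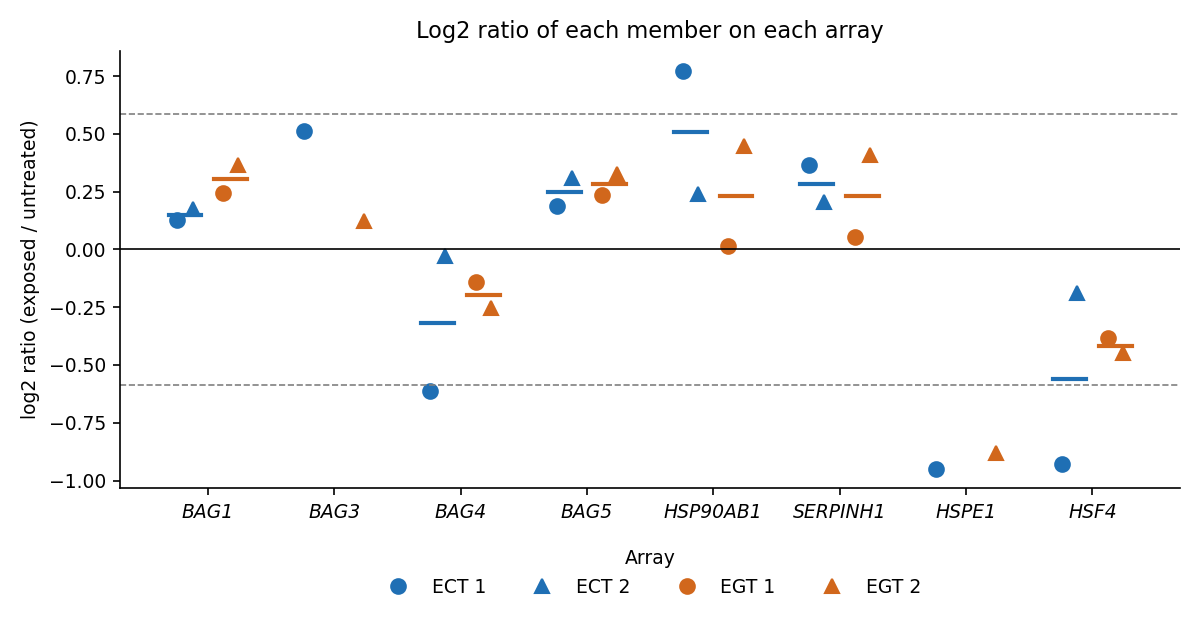
Log2 ratio (exposed/untreated, y axis) of the 8 genes on each array, with circles for array 1 and triangles for array 2, blue for ECT and orange for EGT pulses, short bars for means of 2 arrays, and dashed lines at 1.5-fold. HSF4 and BAG4 lie below 0 on all 4 arrays and the widest gaps between arrays of a pulse type are those of HSF4 (-0.93 and -0.19), BAG4 (-0.61 and -0.03) and HSP90AB1 (0.77 and 0.24) after ECT pulses.

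BAG1, the founding member of the family, was discovered as a partner of BCL2. Its oligonucleotide (VM_H200004539) was spotted 8 times, and all 8 spots were kept on every array. The log2 ratio was 0.13 on ECT array 1, 0.17 on ECT array 2, 0.25 on EGT array 1 and 0.37 on EGT array 2. All 4 arrays were above 0. The mean was 0.15 ± 0.03 (SD, n = 2) after ECT pulses and 0.31 ± 0.08 after EGT pulses, or 1.11-fold and 1.24-fold. Adjusted p from limma was 0.462 and 0.251. The difference between the pulse types, -0.16 (95% confidence interval -0.49 to 0.18), had an adjusted p of 0.988 from limma. Within an array the SD over the 8 spots was 0.11 to 0.28, on a scale on which the 4 ratios were 0.13 to 0.37. When 4 spots of high local background were kept in the background fit of EGT array 1, the BAG1 ratio there was 0.04.

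BAG5, which unlike its relatives consists of a row of BAG domains, was above 0 on every array. Its log2 ratios (VM_H200001058) were 0.19 and 0.31 for arrays 1 and 2 of the ECT pulses, then 0.23 and 0.33 for those of the EGT pulses. The ranges of the pulse types overlapped. The means were 0.25 ± 0.09 and 0.28 ± 0.07, with adjusted p of 0.289 and 0.266 from limma. The Cy3 signal on EGT array 2 was a median of 59.5, against 109 to 201 on the other arrays, and 1 of its 4 spots there was left out, as were 2 of 4 on ECT array 1. The ratio on ECT array 1 thus rests on 2 spots, of 0.30 and 0.08. With 4 spots of high local background kept in the background fit of EGT array 1, the BAG5 ratio there was 0.03.

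BAG4, also called SODD, binds the death domains of TNF receptors. Its log2 ratios (VM_H200014672) were -0.61 on ECT array 1, -0.03 on ECT array 2, -0.14 on EGT array 1 and -0.25 on EGT array 2. ECT array 1 stood alone, and ECT array 2 was the nearest to 0. The mean after ECT pulses was -0.32 ± 0.41, an SD larger than the mean, and after EGT pulses -0.20 ± 0.08. Adjusted p from limma was 0.345 and 0.580. On ECT array 1 the Cy5 spots were faint, at 35 to 48 against a background of 16 to 19, and the spot left out was at 1.95 times background. With median centring in place of loess, ECT array 2 was above 0 (0.03), and the means were -0.25 and -0.15. In the deposited normalized table all 4 arrays were below 0, with means of -0.47 and -0.34 (adjusted p of 0.2285 and 0.3914 from limma).

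BAG3, the member of the family that is induced by stress and directs clients to autophagy, was at the limit of detection. Its log2 ratio (VM_H200002463) was 0.51 on ECT array 1, from 3 kept spots (0.51, 0.30 and 0.73), and 0.12 on EGT array 2, from 4. On ECT array 2 and EGT array 1 no spot was kept. The median Cy3 intensity was 78 on ECT array 1 and 45 on EGT array 2, but 18 and 22.5 on ECT array 2 and EGT array 1, and Cy5 was 57.5, 46.5, 23.5 and 21.5 in the same order. Signal over background in Cy3 was 1.32 on ECT array 2 and 1.88 on EGT array 1, where the negative control spots had medians of 1.2 and 1.3. With 1 array per pulse type there is no test, and the value depended on the background step: ECT array 1 was at 1.19 with plain subtraction and at 0.36 with spots kept only from 3 times background.

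HSPE1, or HSP10, showed the same 2 arrays apart. Its log2 ratio (VM_H200000309) was -0.95 on ECT array 1 and -0.88 on EGT array 2, each from 4 kept spots, and it was the lowest ratio of the 8 genes on both arrays. On ECT array 2 and EGT array 1 there was 1 kept spot each, so no value was taken. The 1 kept spot was at 0.11 and 0.08, and the deposited normalized table has 0.57 and 0.76 on these arrays, against -1.28 on ECT array 1 and -1.14 on EGT array 2. A mean over both arrays of a pulse type would therefore join ratios of opposite sign.

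The intensities behind these ratios differed between arrays in the untreated channel as well. Median Cy3 intensity of HSPE1 was 462 on ECT array 1 and 226.5 on EGT array 2, but 34.5 on ECT array 2 and 28.5 on EGT array 1. Cy5 was 68 and 80 on the bright pair and 40 and 27.5 on the dim pair. Relative to the median of each array, the Cy3 signal of HSPE1 was 9.99-fold higher on ECT array 1 than on ECT array 2 and 20.1-fold higher on EGT array 2 than on EGT array 1, which ranks 33 and 28 of 1635 oligonucleotides. For BAG3 these folds were 6.56 and 4.59, ranks 41 and 48. In Cy3, 37 of 1635 oligonucleotides were at least 4-fold brighter on both ECT array 1 and EGT array 2 than on the other array of the same pulse type, 4 the other way round, and 0 or 1 in the pairings by array number. BAG3 and HSPE1 are among the 37. In Cy5, 35 were, among them BAG3. These gaps lie between arrays of 1 pulse type and are present in the untreated channel, and what sets the pairs apart was not tested.

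**Figure D2:**
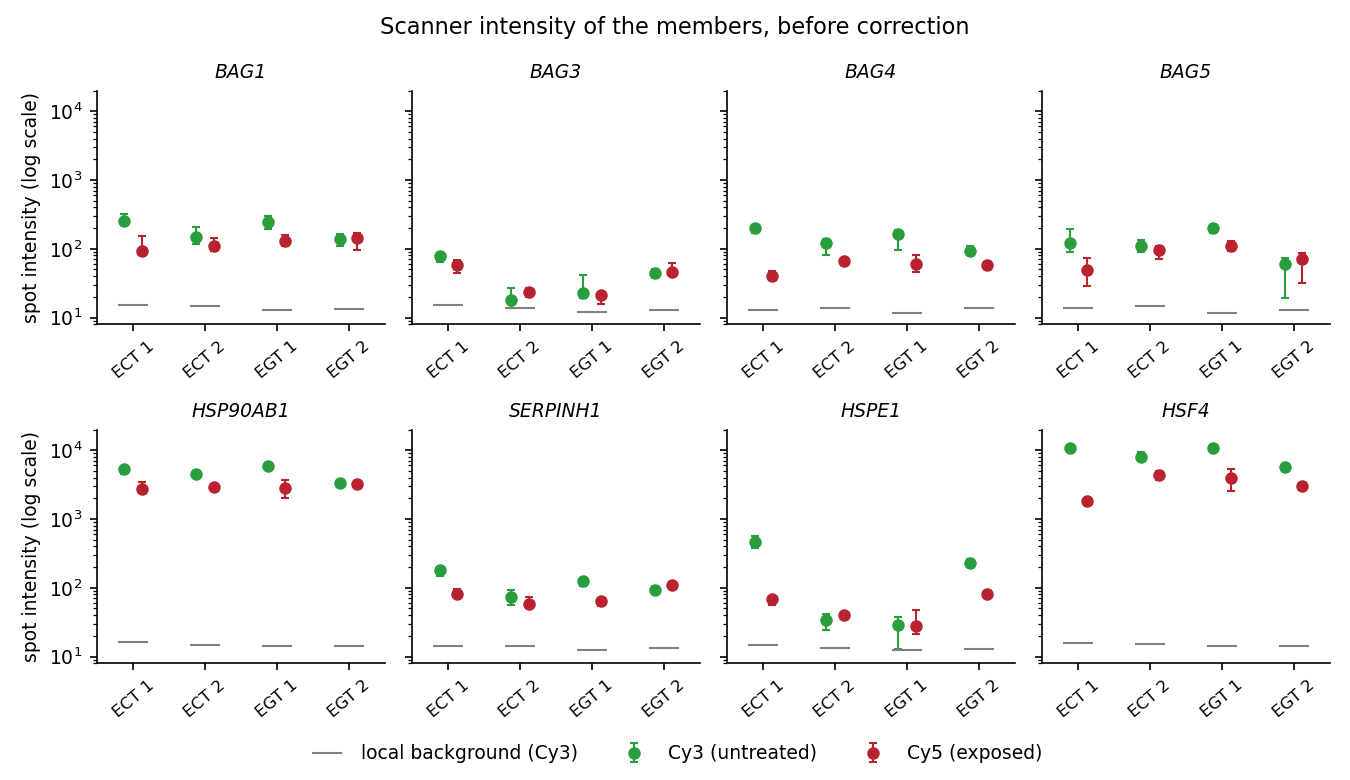
Spot intensity as scanned (y axis, log scale) of the 8 genes on each array, in Cy3 (untreated, green) and Cy5 (exposed, red), as the median of the replicate spots with bars for their lowest and highest values, and grey dashes for the local background in Cy3. BAG3 and HSPE1 are brighter on ECT array 1 and EGT array 2 (HSPE1 at 462 and 226.5 in Cy3, BAG3 at 78 and 45). On the other 2 arrays they are near background. HSF4 and HSP90AB1 lie far above background on all 4 (Cy3 of HSP90AB1 at 3308.5 or more).

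HSP90AB1 was measured on all 4 arrays, with all 16 spots kept. Its log2 ratios (VM_H200005935) were 0.77 on ECT array 1, 0.24 on ECT array 2, 0.02 on EGT array 1 and 0.45 on EGT array 2. ECT array 1 was the only array past 1.5-fold, EGT array 1 was close to 0, and the pulse types overlapped. The mean after ECT pulses was 0.51 ± 0.38, or 1.42-fold, the rank 27 from the top of 1175 oligonucleotides, with an adjusted p of 0.229 from limma. With median centring that mean was 0.21. After EGT pulses it was 0.23 ± 0.31 (adjusted p = 0.553 from limma), and -0.03 with median centring. The difference between pulse types was 0.27 (95% confidence interval -0.30 to 0.85). Signal was strong on every array, with Cy3 medians of 3308.5 to 5851.5 and Cy5 medians of 2699 to 3234. The 4 spots of ECT array 1 were at 0.57 to 0.83 and those of EGT array 1 at -0.38 to 0.46, an SD of 0.12 against 0.34. When 4 spots of high local background were kept in the background fit of EGT array 1, its ratio there was -0.12.

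SERPINH1, the other gene with a heat shock element of 3 units in its window, had log2 ratios (VM_H200001857) of 0.36 on ECT array 1, 0.21 on ECT array 2, 0.05 on EGT array 1 and 0.41 on EGT array 2. Here too EGT array 1 was the lowest, and all 4 arrays were above 0. The means were 0.29 ± 0.11 and 0.23 ± 0.25, or 1.22-fold and 1.17-fold, with adjusted p of 0.321 and 0.410 from limma. All 16 spots were kept. Median intensities were low, 72.5 to 184 in Cy3 and 59 to 110 in Cy5.

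HSF4 was below 0 on all 4 arrays. Its log2 ratios (VM_H200006116) were -0.93 on ECT array 1, -0.19 on ECT array 2, -0.38 on EGT array 1 and -0.45 on EGT array 2. ECT array 1 was past 1.5-fold, and ECT array 2 was the nearest to 0. The mean after ECT pulses was -0.56 ± 0.53, or 1.47-fold lower, with an adjusted p of 0.217 from limma, and after EGT pulses -0.42 ± 0.04, or 1.33-fold lower, with 0.336. The EGT arrays lay close to each other, but the 4 spots of EGT array 1 ran from -1.02 to 0.02 (SD 0.50), against an SD of 0.12 to 0.13 on the other arrays. The untreated signal was strong, with Cy3 medians of 10668, 8017.5, 10882 and 5739.5, and Cy5 was 1804.5, 4433, 3944.5 and 3055. In Cy3 this oligonucleotide stood at percentile 97.1 to 97.3 of all on an array, above that of HSP90AB1 (95.7 to 96.1). Whether the signal comes from HSF4 transcript or from binding of other transcripts was not tested, so it does not show that HSF4 is highly expressed. With median centring in place of loess, the mean over both pulse types was -0.74 in place of -0.49.

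Across the 6 measured genes, 0 passed an adjusted p of 0.05 from limma after ECT pulses, where 0% of 1175 oligonucleotides did, and 0 passed after EGT pulses, where 0% of 1326 did. At an unadjusted p under 0.05 from limma, 3 of the 6 (BAG5, HSP90AB1, HSF4) were counted after ECT pulses, where the share of all oligonucleotides was 16.5%, and 2 of the 6 (BAG1, BAG5) after EGT pulses, where it was 15.5%. The EGT count depended on leaving out 4 spots of high local background. With these spots kept, HSF4 alone was counted after EGT pulses, where 88 of 1326 oligonucleotides were. BAG1 and BAG5 then had unadjusted p of 0.12 and 0.15 from limma after EGT pulses, and BAG5 had 0.074 after ECT pulses. The 1.5-fold rule on both arrays, the call rule of the study's methods, counted 0 of the 6 after either pulse type, against 0.936% of all oligonucleotides after ECT and 0.603% after EGT pulses. On ECT array 1 by itself, HSP90AB1 was higher and BAG4, HSPE1 and HSF4 lower by at least 1.5-fold. There 44 of 1477 oligonucleotides were higher and 89 lower. HSPE1 was lower by at least 1.5-fold on EGT array 2, where 21 of 1536 were higher and 51 lower. On ECT array 2 and EGT array 1, none of the 6 genes measured there passed.

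Of the 6, 4 were above 0 on both ECT arrays, where 29.9% of all oligonucleotides were, and 2 were below 0 on both, where 34.5% were. After EGT pulses the counts were again 4, against 29.9%, and 2, against 34.8%. With median centring HSP90AB1 was below 0 on EGT array 1 (-0.25) and BAG4 was not below 0 on ECT array 2. HSP90AB1 was also below 0 on EGT array 1 with the spots of high local background kept (-0.12) and with no filter on low spots (-0.08). The median of the 6 means was 0.20 after ECT and 0.23 after EGT pulses, and that of all oligonucleotides -0.02 and -0.01. Between arrays of a pulse type the SD over all oligonucleotides had a median of 0.13 for ECT and 0.11 for EGT pulses, so that the ECT SDs of HSF4, BAG4 and HSP90AB1 (0.38 to 0.53) and the EGT SDs of HSP90AB1 and SERPINH1 (0.25 to 0.31) were above it.

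**Figure D3:**
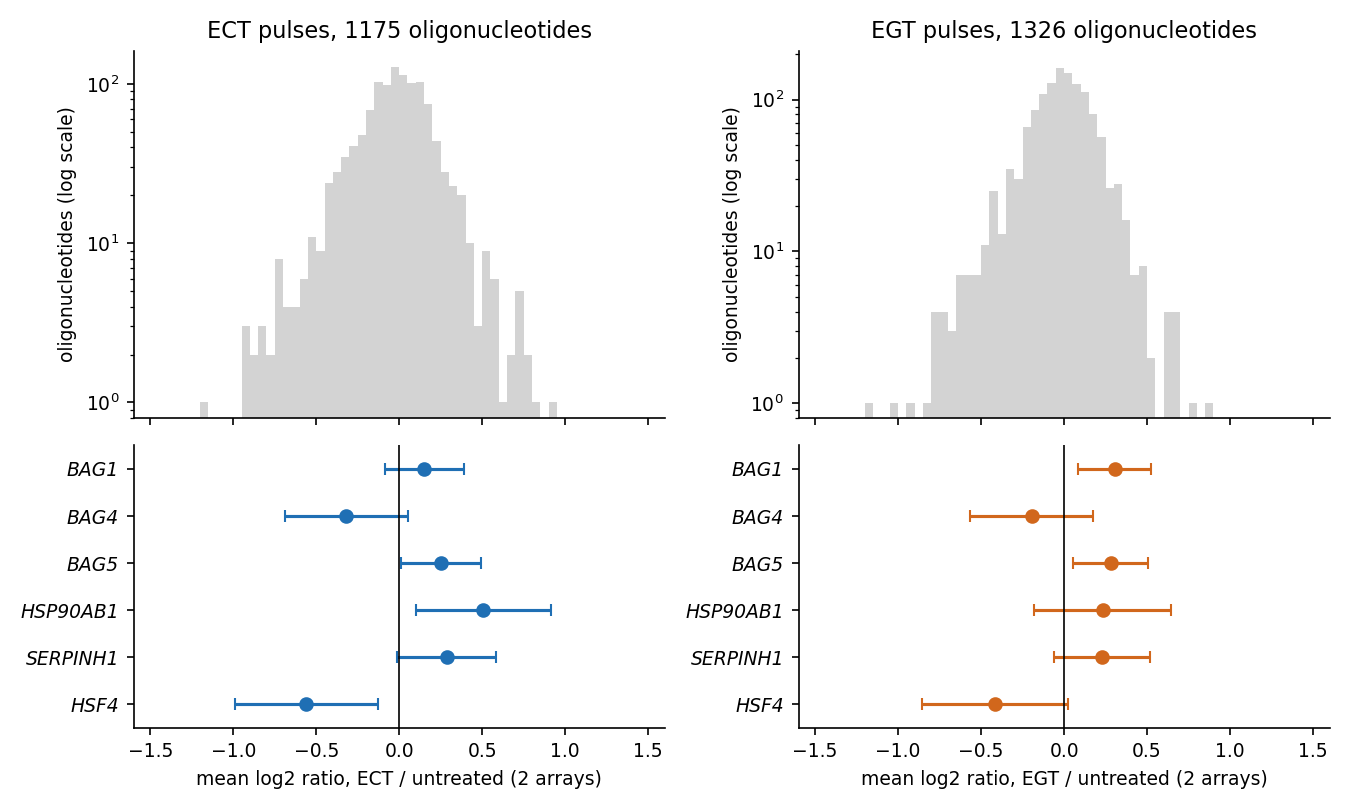
Top, histograms of the mean log2 ratio of 2 arrays (x axis) over all oligonucleotides measured on both ECT (1175) or both EGT arrays (1326), on a log count axis. Bottom, the 6 measured genes on the same axis with limma's unadjusted 95% confidence intervals, which for BAG5, HSP90AB1 and HSF4 after ECT pulses and for BAG1 and BAG5 after EGT pulses do not cross 0. The intervals are from the fit with the 4 spots of high local background left out.

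The fit of the mean over all 4 arrays against 0 takes the arrays as independent. However, ECT array 1 and EGT array 2 shared the bright oligonucleotides described above. Over all oligonucleotides the log2 ratios of this pair correlated at 0.74, and those of the other pairs of arrays at 0.40 to 0.48. HSP90AB1, SERPINH1, BAG4 and HSF4 were furthest from 0 on this pair, while BAG1 and BAG5 were not. The same sign on 4 arrays is thus weaker evidence than it would be from 4 independent arrays. In this fit, no gene of the 6 passed an adjusted p of 0.05 from limma. Of all 1163 oligonucleotides 8 did (0.688%), 5 of which were higher. Under median centring the split was 115 higher of 401. HSF4 had the smallest adjusted p of the 6 (mean -0.49 with a standard error of 0.13, limma's adjusted p = 0.0882, with 4 of 4 arrays below 0), followed by BAG5 (mean 0.27 with a standard error of 0.07, limma's adjusted p = 0.0916, with 4 of 4 above 0). BAG1 was at 0.23 (adjusted p = 0.108 from limma), HSP90AB1 at 0.37 (adjusted p = 0.118), SERPINH1 at 0.26 (adjusted p = 0.129) and BAG4 at -0.26 (adjusted p = 0.183). At an unadjusted p under 0.05, 5 of the 6 were counted where 28.1% of all oligonucleotides were, and BAG4 was not. With the 4 spots of high local background kept, 4 of the 6 were, against 242 of 1163 oligonucleotides, and BAG1 and BAG4 were not. Under median centring HSF4, SERPINH1 and BAG5 had adjusted p of 0.0105, 0.0284 and 0.0369 from limma, when 34.5% of all oligonucleotides passed as well. In limma's test of ECT minus EGT pulses, 0 of the 6 and 0% of 1163 oligonucleotides passed an adjusted p of 0.05 (31 of 1163 at an unadjusted p under 0.05), and all 6 intervals of the difference included 0. The widest, that of HSF4, ran from -0.75 to 0.46 around -0.14.

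The HSP70 system that the BAG proteins act on was measured by 7 oligonucleotides on all 4 arrays. All 7 had means above 0 after ECT pulses (median 0.42) and 6 of 7 after EGT pulses (median 0.30). HSPA1B, the inducible HSP70, passed limma's test over both pulse types with 1 of its 2 oligonucleotides (0.66, adjusted p = 0.025), and its other was at 0.41 (adjusted p = 0.0556). That HSPA1B oligonucleotide, at 0.66, was the only one tested from these chaperone lists, the 6 measured genes included, to pass. DNAJB1, a J protein that delivers clients to HSP70, averaged 0.49 ± 0.18 for ECT and 0.44 ± 0.01 for EGT pulses (adjusted p = 0.054 over both from limma), and HSPA2 at 0.52 ± 0.30 and 0.30 ± 0.51.

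Of the other co-chaperones CDC37, which brings kinases to HSP90, PPP5C, an HSP90-bound phosphatase, and ST13, an HSP70-interacting protein, 0 of 3 were above 0 after ECT pulses, with a median of -0.10, and 1 of the 4 co-chaperones measured on both EGT arrays was, with a median of -0.049. PPP5C averaged -0.22 ± 0.19 for ECT and -0.02 ± 0.06 for EGT pulses. SUGT1, a co-chaperone without a value on ECT array 2, was at -0.36 on ECT array 1, -0.13 on EGT array 1 and -0.10 on EGT array 2. BAG2 and STIP1 were on the array but not measured. The HSP90 of the endoplasmic reticulum, HSP90B1, was at 0.25 ± 0.54 and 0.03 ± 0.03 with its 2 oligonucleotides after ECT pulses, and the mitochondrial TRAP1 at -0.01 ± 0.16. Among chaperonins and mitochondrial chaperones, TBCA, a tubulin-folding cofactor, was lower by at least 1.5-fold on both ECT arrays (-1.14 and -0.61) and was at -0.23 and -1.27 on the EGT arrays, with an adjusted p of 0.065 over both from limma. CLPP, a protease of the mitochondrial matrix, was at -0.14 and -0.15 on the ECT arrays, -0.21 on each EGT array, with an adjusted p of 0.153 over both from limma. CCT8, a subunit of the cytosolic chaperonin, was at 0.05 ± 0.18 and 0.03 ± 0.11. HSPB2, a small heat shock protein, was measured on EGT array 1 alone, at -0.35. None of the other heat shock factors was on the array by symbol.

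Partners of the BAG proteins were measured by 5 oligonucleotides on both ECT arrays, 4 of them with means above 0 (median 0.18), and by 7 on both EGT arrays, 4 of them above 0 (median 0.0064). SIAH1, a ubiquitin ligase that BAG1 binds, averaged 0.45 ± 0.06 for ECT and 0.13 ± 0.11 for EGT pulses (adjusted p = 0.0832 over both from limma). TNFRSF1A, the TNF receptor whose death domain BAG4 covers, was at 0.24 ± 0.20 and 0.15 ± 0.07. HGF, whose receptor MET BAG1 binds, was at -0.24 ± 0.03 and -0.05 ± 0.23. Of collagens, the clients of SERPINH1, COL3A1 averaged 0.20 ± 0.08 for ECT and 0.13 ± 0.19 for EGT pulses, and COL6A3 at 0.09 ± 0.16 and 0.13 ± 0.18. No partner or collagen passed limma's test for either pulse type or both.

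**Figure D4:**
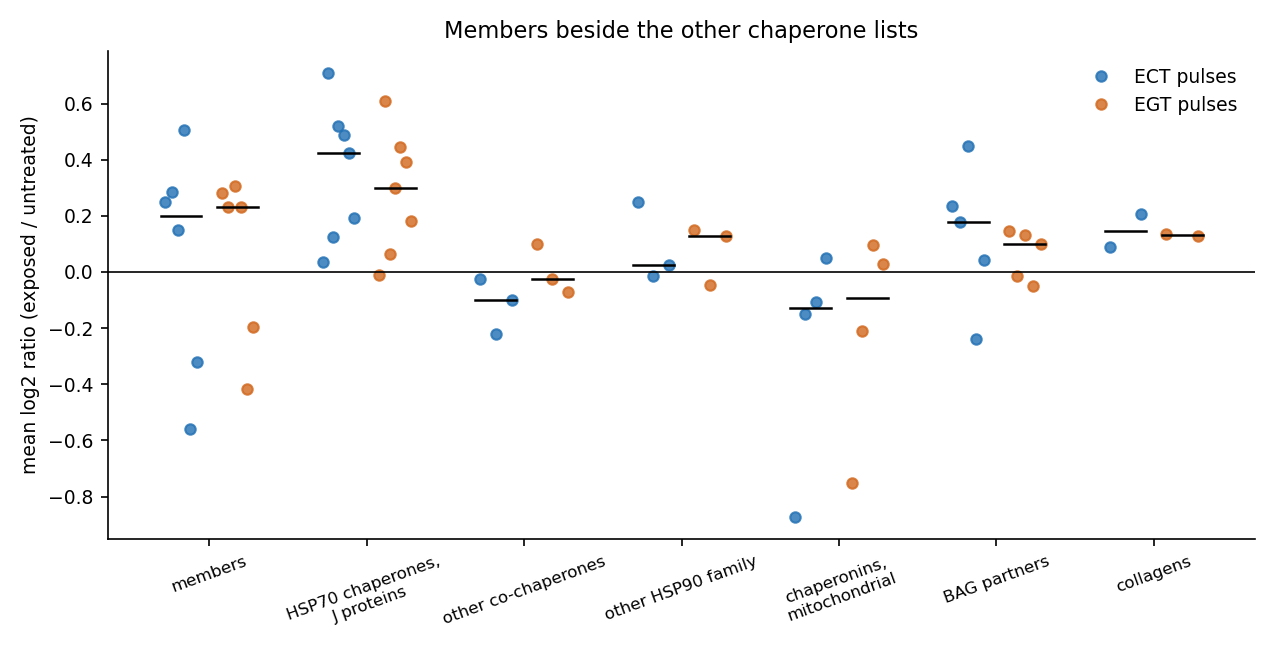
Mean log2 ratio (y axis) after ECT (blue) and EGT pulses (orange) of each oligonucleotide measured on all 4 arrays, for the 6 measured genes described here and for 6 other lists, with black bars for medians. The HSP70 and J protein list has medians of 0.42 and 0.30, above those of the 6 genes (0.20 and 0.23), and the lowest point of the plot is TBCA.

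The oligonucleotides with the most similar values over the 4 arrays were found among 999 with a symbol, by the root mean square difference of the log2 ratios. For HSP90AB1 they were E2F3 (0.09), ELK1 (0.12) and CCND1 (0.12), against a median of 0.49 over all, and like HSP90AB1 each was highest on ECT array 1, at 0.81 to 0.87. For HSF4 they were SULT1C2 (0.07), SKP2 (0.11) and POLR2I (0.12), against a median of 0.56. For SERPINH1 they were CUL4A, DCK and PSMD1 (each 0.06 to 0.07), which were all lowest on EGT array 1. BAG1 and BAG5 shared 2 of their 3 nearest, SLC26A4 and ZFP91. All of these were picked by the same 4 values, so a shared highest or lowest array follows largely from the choice. The same holds for neighbours shared by genes of similar values.

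The mean over both pulse types kept its sign for each of the 6 genes under every processing that gave it a value. BAG4 had none with spots kept only from 3 times background, and BAG5 none where 3 kept spots were asked for. BAG1 ran from 0.17 to 0.33, BAG5 from 0.20 to 0.44, SERPINH1 from 0.17 to 0.45 and HSP90AB1 from 0.09 to 0.50. BAG4 ran from -0.50 to -0.11 and HSF4 from -0.74 to -0.30. After ECT pulses 1 array decided the size of 3 means: without ECT array 1 the ECT mean of HSF4 was -0.19, that of BAG4 -0.03 and that of HSP90AB1 0.24. ECT array 1 is also the only array without the word cisplatin in its label, and what sets it apart was not tested.

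**Figure D5:**
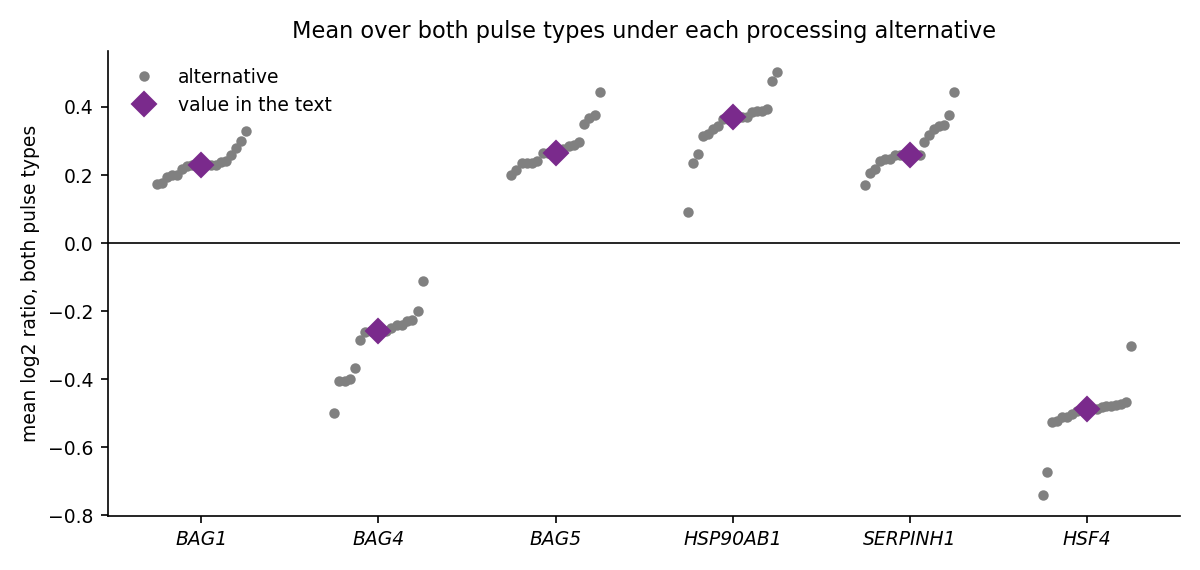
Mean log2 ratio over both pulse types (y axis) of the 6 measured genes as given in the text (diamonds) and under each processing alternative, arrays left out in turn included (grey points, sorted). All points of BAG4 and HSF4 lie below 0 and all others above it, with the widest ranges for HSP90AB1 (0.09 to 0.50) and HSF4 (-0.74 to -0.30).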

How the data were processed

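The deposited scanner files hold, per the labels and the file headers, median spot intensity and local background of each channel on a linear scale, not normalized. The authors extracted them with Array-Pro Analyzer. The authors' table of normalized values, log2 ratios after LOWESS and the median of spots in Acuity, was used as an alternative. Its direction was checked against the scanner values (r = 0.91 to 0.96 per array).

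Spots with a local background over 1000 (4, on EGT array 1) were left out first. Background was corrected with normexp (offset 50) in limma 3.58.1 (R 4.3.3). Spots were then dropped where either channel was under 2 times background, above 65000 or had a CV above 0.3. Loess (span 0.3, 4 iterations) was fitted to each array, and an oligonucleotide's value was the median of 2 or more spots. Normexp with this offset draws the ratios of faint spots toward 0.

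Group means were fitted on all 4 arrays with lmFit and eBayes and adjusted by Benjamini-Hochberg over all oligonucleotides measured in each comparison. The steps were also run on simulated arrays, with noise drawn independently for each array and with changes larger than the means of the 8 genes. That run cannot show how the tests behave with correlated arrays or with changes as small as those given here. The 8 genes, the gene lists and the exclusion of the 4 spots were chosen with earlier results of these data known. Named from each list were genes past the 1.5-fold rule and up to 3 of the largest mean ratios, plus HSPA1B, DNAJB1 and, chosen after their values were seen, CDC37 and the markers. Symbols and Entrez IDs matched RefSeq for all 8 genes. Promoter sequences are from RefSeq. Positions of the oligonucleotides were not determined.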

Additional observations from a re-analysis of the deposited data

Results flagged for a closer look

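Among 49 oligonucleotides of the 8 genes and of the gene lists that were measured on all 4 arrays, 3 had opposite signs on both arrays of each pulse type, and none of the 3 belongs to the 8 genes. The oligonucleotide of MLANA, a melanocyte antigen, was below 0 on both ECT arrays (mean -0.21) and above 0 on both EGT arrays (mean 0.15), a difference of -0.36. A KRT14 oligonucleotide of the epithelial list was at 0.21 and -0.13, a difference of 0.34, while the other KRT14 oligonucleotide was below 0 on all 4 arrays. A DCN oligonucleotide of the fibroblast list was at 0.02 and -0.24, a difference of 0.26, and the other DCN oligonucleotides did not show opposite signs. Adjusted p from limma for the difference was 0.988 for each of the 3. The arrays of each pulse type number 2, too few for a check of single outlying arrays.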

How the results depend on the processing

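With 2 arrays per pulse type, calls moved far more than values. Over both pulse types, 8 oligonucleotides passed in limma, against 0 with all spots, 0 with no filter on low spots, 5 with the mean of spots, 55 with no background correction, 58 with offset 16, 60 in the authors' table, 63 with scaled arrays, 68 with spots from 3 times background, 401 with median centring, and 0 without any 1 array. After ECT pulses the count of 0 became 114 with median centring, and after EGT pulses 95, or 9 in the authors' table. The 1.5-fold count of 11 after ECT pulses was 17 with no background correction, 27 with plain subtraction, 33 with median centring, 17 in the authors' table, 18 at a log2 threshold of 0.5, and 27 to 133 on 1 array. That of 8 after EGT pulses was 2 with all spots, 13 with no background correction and with offset 16, 22, 32, 14 and 17 in the order just given, and 18 to 72 on 1 array.

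Of the 8 genes, 0 to 4 passed 1.5-fold after ECT pulses with an array left out (4 on ECT array 1 alone) and 0 to 1 after EGT pulses, and HSF4 alone (1) passed after EGT pulses with median centring. The number below 0 on both ECT arrays was 1 with median centring and with spots from 3 times background, where BAG4 was not measured on ECT array 1. The EGT mean of HSP90AB1 was -0.025 with median centring. ECT minus EGT, never called, turned sign for BAG5 with all spots (0.069) and median centring (0.068) and for SERPINH1 with spots from 3 times background (-0.018). With an array left out it also spanned 0, from -0.42 to 0.17 for BAG4, -0.092 to 0.029 for BAG5, -0.12 to 0.23 for SERPINH1 and -0.51 to 0.23 for HSF4. The causes were not tested.

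Whether array numbers pair the samples is not stated. Deviations of same-numbered arrays correlated at -0.44, a value that cannot show how the samples were prepared or paired. With the replicate block limma gave 74, 47 and 142 calls of 1163 tested for ECT, EGT and both (6.36%, 4.04% and 12.2%). HSP90AB1 and HSF4, 2 of the 6 measured genes, were among those for ECT and both. These calls come from a spread pooled over nearly all oligonucleotides (292.3 degrees of freedom, against 6.21 without). With crossed numbers, added after seeing the data, there were 112 calls over both (9.63% of 1163), HSP90AB1 among them.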
